A study of Mus musculus with 11 samples.

Results

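The 6 genes described here encode sodium channel alpha subunits that were followed in the hippocampus of mice lacking the 1b interval of Scn1a. They are Scn1a, Scn2a1, Scn3a, Scn8a, Scn9a and Scn7a, taken by their symbols from both count tables. The tables list 24391 genes in the heterozygous round and 24015 in the homozygous round, and every member was present in each of the 11 libraries.

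RNA was sequenced from hippocampus of a single hemisphere at postnatal day 32, while the sample labels call the mice adult. All mice came from 1 line, made in C57BL/6N oocytes, in which CRISPR removed the 1b interval, a conserved stretch that holds a non-canonical Scn1a start site, and no other allele or treatment is given for any group. In the heterozygous round 4 mice with 1 deleted allele (1b+/-, 3 males and 1 female, the female being replicate 4) were set against 3 male wild-type (WT) mice. In the homozygous round 2 mice with both alleles deleted (1b-/-, 1 male and 1 female) were set against 2 female WT mice, so sex and genotype were not balanced in either round. The rounds also differed in read type, single-end reads of 50 bases in the homozygous round and longer paired-end reads in the heterozygous round, so mutants were tested against the WT mice of their own round only. Library totals ran from 20667122 to 36145161 counts. The deletion was constitutive and the tissue whole, so a fall of RNA per cell and a loss of cells that carry it cannot be told apart.

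An alpha subunit forms the pore and the voltage sensor of a sodium channel, and beta subunits attach to it. In brain the alpha subunits divide the labour by cell type and by place on the neuron. The product of Scn1a is best known from fast-spiking GABAergic interneurons, and loss of 1 copy of its human counterpart causes Dravet syndrome. Scn2a1 and Scn8a supply much of the sodium current of excitatory neurons, Scn2a1 early and along unmyelinated axons, Scn8a at mature initial segments and nodes of Ranvier. Scn3a is mainly an embryonic subunit in rodents. Scn9a is best known from peripheral sensory and sympathetic neurons. Scn7a encodes an atypical, sodium-sensing relative found largely in glia. Whether the other subunits were higher where Scn1a was lower is the question these values address.

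Of the 6 genes, 5 lie in a cluster on chromosome 2, the chromosome of the deletion. In the GENCODE annotation of mm9, the build of the alignments, Scn1a spans chr2:66108838-66278897 on the minus strand, and the 1b exon lies at chr2:66247919-66248121. Scn9a begins 224888 bases from the start of the 1b exon, Scn7a 374850 bases, Scn2a1 789207 bases and Scn3a 842437 bases. Scn8a lies alone, at chr15:100785829-100876360, with a second model of the same name at chr15:100763860-100771229. The exon length used for Scn8a, 12138 bases, pools both models. Whether its counts did is not given in the sources used here. An antisense-named model, Gm13630, overlaps an exon of Scn1a, and Gm13629 one of Scn9a. The strand setting of the counting is not given in the sources used here, so reads there could not be assigned with certainty.

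The members are paralogs, and stretches of their coding sequence are the same base for base. Shared stretches bound what short reads can separate. Across the 6001 windows of 30 bases in the Scn1a coding sequence, 565 (9.42%) also occurred in Scn2a1, 538 (8.97%) in Scn3a, 308 (5.13%) in Scn9a, 8 (0.133%) in Scn8a and 0 in Scn7a. At the read length of the homozygous round, 5.33% of the distinct 50-base windows of Scn1a transcripts occurred in another alpha subunit gene. The share was 8.14% for Scn2a1, 6.41% for Scn3a, 5.14% for Scn9a, 0.0491% for Scn8a and 0% for Scn7a. Most of each gene was therefore distinct at that length, and how reads from shared windows were counted is not given in the sources used here.

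Marker lists for other brain regions showed that the WT mice of the homozygous round stood apart. Summed over the 12 genes of the striatal list, which includes the dopamine receptor gene Drd2 and the phosphatase inhibitor gene Ppp1r1b, they held 9255 and 3994 CPM, which are counts scaled to library size with TMM factors within a round. The 1b-/- mice held 467 and 487 CPM. Mice of the 1b+/- round, whose table lists 11 of the 12, held 446 to 651 CPM in WT and 398 to 437 CPM in 1b+/-. In 1b-/- against WT 10 of the 12 striatal genes were called lower and 0 higher, as were 4 of 6 cholinergic neuron genes. The striatal genes of smallest p were Tac1, a neuropeptide precursor (log2 fold change -4.41, adjusted p = 0.0207, edgeR), and the dopamine receptor gene Drd1a (-4.29, adjusted p = 0.0207). In 1b+/- 0 of the 11 were called, with Tac1 at -0.93 (adjusted p = 0.0777). Of these 11, 10 had a log2 fold change below 0 there (median -0.49, all genes 0.00073). Chat, the acetylcholine-synthesizing enzyme, stood at 11.98 and 29.3 CPM in these WT mice and at 0.0852 and 0.219 CPM in 1b-/-, and Slc5a7, the choline transporter, had a log2 fold change of -4.45. The CA3 pyramidal cell list was higher in 1b-/-, with 4 of 6 genes called higher and sums of 2001 and 2482 CPM against 716 and 1023 CPM in WT. Iyd and Grik4 had the smallest p of that list (log2 fold changes 4.10 and 2.06). Of 8 dentate granule cell genes 3 were called higher. Among them C1ql2 stood at 1.78 and 1.85 CPM in WT against 71.7 and 78.9 CPM in 1b-/-, and at 33.8 to 37.9 CPM in WT of the heterozygous round. The dentate sums were closer, at 321 and 344 CPM in WT and 467 and 468 CPM in 1b-/-. Of the 8 genes 2 went the other way. Calb1 had means of 135 CPM in WT and 95.8 CPM in 1b-/-, and Dock10 of 111 and 87.8 CPM. The neocortex list stood at 410 and 530 CPM in WT and at 326 and 177 CPM in 1b-/-, with 3 of 7 genes called lower, of which Foxp2 and Rspo1 had the smallest p (log2 fold changes -4.10 and -2.62). It stood at 221 to 276 CPM in the heterozygous round. Of its 7 genes 6 had a log2 fold change below 0 in 1b-/-. Fezf2 went the other way, with means of 26.1 CPM in WT and 47.6 CPM in 1b-/-. Choroid plexus genes set 1b-/- replicate 2 apart, at 13649 CPM against 60.9 CPM in replicate 1 and 54.1 and 3424 CPM in WT, with 0 of 7 called (smallest p for Aqp1 and Ttr, log2 fold changes 1.85 and 2.03). The labelled tissue of the 2 WT libraries of the homozygous round thus had low dentate and CA3 list sums beside high striatal ones. These sums and that of the neocortex list differed with genotype in that round. The part of these markers in the changes of Scn1a, Scn3a, Scn8a and Scn9a was not tested. Both WT libraries carried them, so no fit without the affected libraries could be made.

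**Figure D1:**
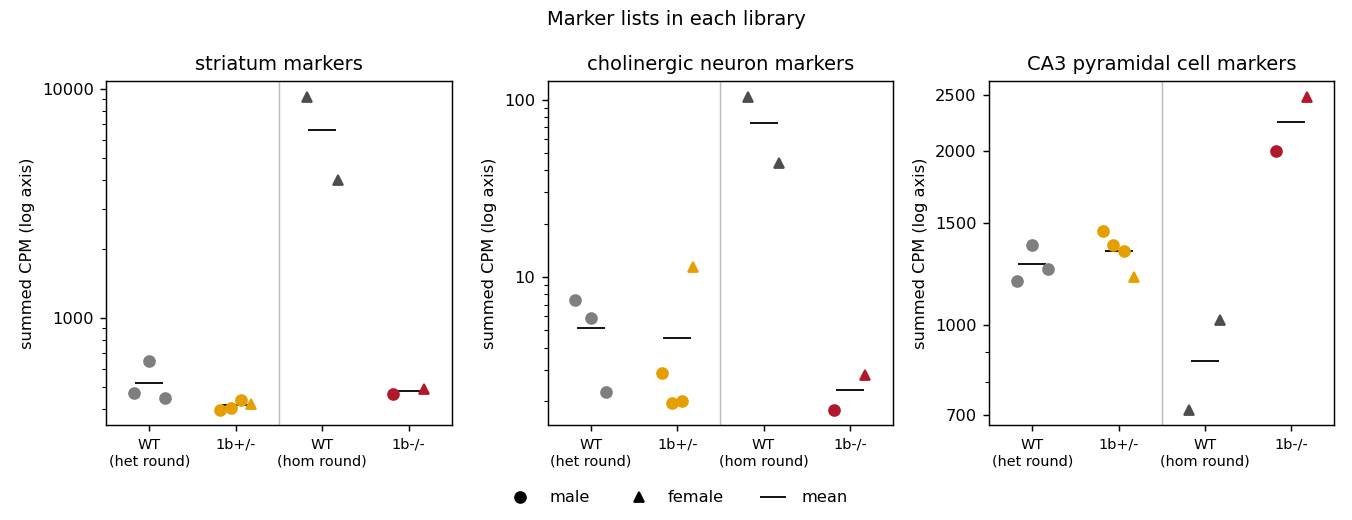
Summed CPM of the striatal, cholinergic neuron and CA3 pyramidal cell lists in each library, on log axes, with bars at group means; circles are males and triangles females. Both WT libraries of the homozygous round hold 3994 CPM or more of striatal genes, and the other 9 libraries hold 651 CPM or less.

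Levels were compared between genes as CPM per kilobase of annotated exon. Among the 3 WT mice set against 1b+/-, Scn2a1 stood highest at 51.0 ± 0.543 CPM per kilobase (SD, n = 3). Scn8a followed at 32.9 ± 1.83, Scn1a at 12.2 ± 2.79 and Scn3a at 5.41 ± 0.415. Scn7a and Scn9a were far lower, at 0.638 ± 0.154 and 0.431 ± 0.0199. No neighbours in this order overlapped among the WT mice of that round. Among the 2 WT mice set against 1b-/-, Scn8a (27.7 and 28.3 CPM per kilobase) and Scn2a1 (24.5 and 30.4) overlapped, while Scn1a (12.1 and 15.6) and Scn3a (4.26 and 3.56) kept their places below. Scn9a (0.589 and 0.606) stood above Scn7a (0.209 and 0.242) there. The WT libraries of both rounds therefore held most Scn2a1 and Scn8a, then Scn1a, then Scn3a, although those of the homozygous round carried the striatal markers given above.

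In the 1b-/- libraries Scn1a dropped to 2.38 and 1.51 CPM per kilobase, below Scn3a at 2.60 and 2.65. In the 1b+/- libraries Scn1a stayed above Scn3a, at 8.22, 7.52, 8.72 and 10.8 CPM per kilobase against 4.78 to 5.18. Scn9a and Scn7a overlapped in both mutant groups, so their order there could not be set.

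**Figure D2:**
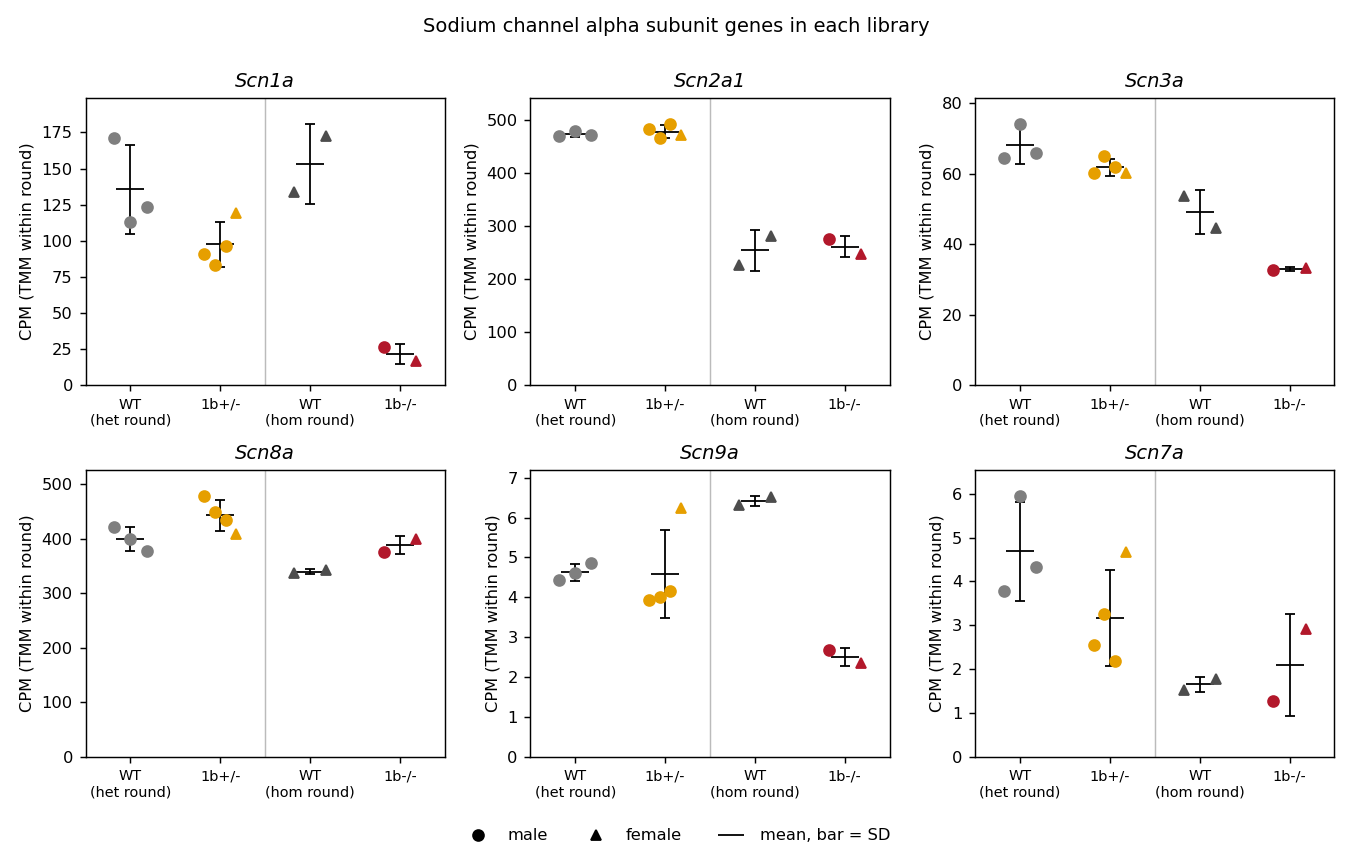
CPM of each of the 6 genes in each library, by group, on an axis from 0 that differs between panels; circles are males, triangles females, and the bar is the mean with its SD. Scn1a is at a mean of 21.5 CPM in 1b-/- mice, while Scn2a1 sits at about the WT level of its round in both mutant groups.

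Scn1a, the targeted gene, fell in 1b-/- and had a lower mean in 1b+/-. With 1 deleted allele the libraries separated only in part. Scn1a stood at 171, 113 and 123 CPM in WT and at 91.1, 83.3, 96.6 and 119 CPM in 1b+/-. The 3 male 1b+/- mice lay below all WT mice, and the female, replicate 4, lay among them. Thalamic markers also differed between these libraries. Summed over 6 genes of a thalamus list, they stood at 391, 85.7 and 67.8 CPM in WT and at 93.9, 97.2, 178 and 262 CPM in 1b+/-. The highest Scn1a library of each group was also its highest in thalamic genes. In 1b+/- replicate 3 came next in both, while the remaining libraries of each group were ordered differently. None of the 6 was called, and all had a log2 fold change below 0 (median -0.21), with the smallest p for Prkcd and Tcf7l2 (-0.40 and -0.36). Summed over 7 genes of a hypothalamus list, WT held 14.4 to 24.8 CPM and 1b+/- held 1.97 to 3.90 CPM, without overlap. Only 2 of these genes passed the filter, and 0 were called. They were Trh (log2 fold change -3.77, adjusted p = 0.0532, edgeR) and Pomc (-0.03). No gene tested in that round had a smaller adjusted p than Trh. The part of the thalamic and hypothalamic genes in the level of Scn1a was not tested. The mean of Scn1a was 28.0% below WT, a log2 fold change of -0.47 ± 0.15 (SE, unadjusted p = 0.0122, adjusted p = 0.303 from the quasi-likelihood test of edgeR with Benjamini-Hochberg correction). Without WT replicate 1, the highest library, the log2 fold change was -0.27, and without 1b+/- replicate 4 it was -0.59. An exact permutation test of the difference in CPM gave a two-sided p of 0.0857 over 35 splits, of which the smallest possible is 0.0286.

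With both alleles deleted it stood at 134 and 173 CPM in WT and at 26.3 and 16.7 CPM in 1b-/-. The log2 fold change was -2.83 ± 0.27 (SE, adjusted p = 0.0211, edgeR), so the level fell by 86.0%. With 1 WT mouse left out the call was lost although the size was not. The log2 fold change was then -3.00 without WT replicate 1 (adjusted p = 0.101) and -2.64 without WT replicate 2 (adjusted p = 0.0601), the lone WT mouse being assumed to vary like the 1b-/- mice. The exact permutation p was 0.333, the smallest that 2 against 2 allows. Reads of Scn1a remained in both 1b-/- libraries, 927 and 533 counts.

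Scn1a was the only member called in the homozygous round. That is 1 of 6, against 3.58% of the 14838 genes tested there, 1.52% being called lower and 2.06% higher. With 1 deleted allele 0 of the 6 were called, against 0% of the 14630 genes tested. The likelihood ratio test and DESeq2 called 243 and 245 genes in that round, none of them a member. At an unadjusted p under 0.05, 3 of the 6 passed in the heterozygous round (Scn1a, Scn3a and Scn8a), where 11.3% of all genes did. With both alleles deleted 3 of the 6 passed (Scn1a, Scn3a and Scn9a), where 26.4% did. The median log2 fold change of the 6 was -0.07 in 1b+/- and -0.27 in 1b-/-, beside 0.00073 and -0.0013 over all genes tested. Every member overlapped between 1b+/- and WT, while 10.9% of genes did not, 6.25% with the mutants below and 4.69% above. Between 1b-/- and WT 4 of the 6 did not overlap, 3 with the mutants below and 1 with the mutants above, where 59.7% of all genes did not overlap, 30.2% below and 29.5% above.

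**Figure D3:**
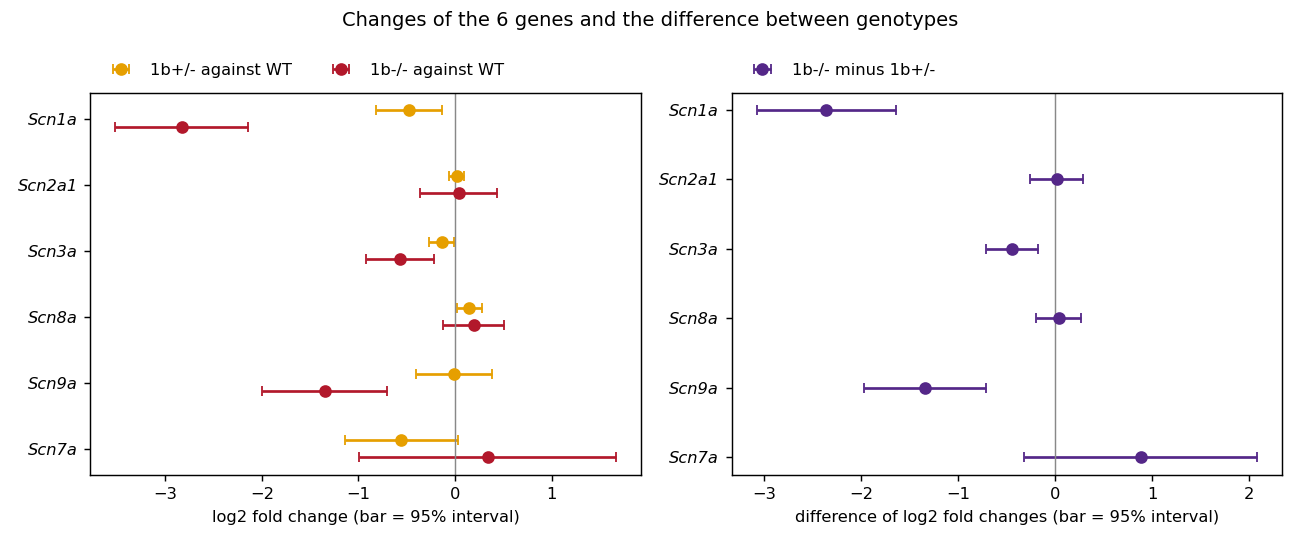
Left, log2 fold change of each gene in each mutant group against the WT mice of its round; right, the 1b-/- change minus the 1b+/- change; bars are 95% intervals. Scn1a, Scn3a and Scn9a have differences whose intervals lie below 0, and Scn2a1 and Scn8a lie near 0 on the right.

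Scn2a1, the most abundant alpha subunit per kilobase in the heterozygous round, did not pass the test in either genotype. It stood at 468, 478 and 471 CPM in WT and at 483, 465, 491 and 471 CPM in 1b+/-. These 7 values lay within a narrow band, and the groups overlapped. Its log2 fold change came to 0.015 ± 0.034 (SE, adjusted p = 0.902, edgeR), with a 95% interval from 4.13% lower to 6.54% higher than WT. The 1b-/- round was less tight. Scn2a1 stood at 227 and 282 CPM in WT and at 275 and 247 CPM in 1b-/-. There the interval was wide, from 22.1% lower to 35.2% higher, around a log2 fold change of 0.038 ± 0.16 (SE, adjusted p = 0.901). The heterozygous round thus bounded a rise of Scn2a1 to a few percent, while the homozygous round could not separate no change from a moderate one.

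Scn8a had the highest counts after Scn2a1 in the heterozygous round and the highest of all in the homozygous round. It stood at 422, 399 and 377 CPM in WT and at 479, 449, 435 and 410 CPM in 1b+/-. The 3 male 1b+/- mice lay above all WT mice, and the female lay among them. The mean was 10.9% above WT, a log2 fold change of 0.15 ± 0.058 (SE, unadjusted p = 0.0293, adjusted p = 0.376, edgeR), with an interval from 1.30% to 21.4% higher. The WT mice of the 1b-/- round had 336 and 344 CPM and the mutants 376 and 400 CPM, both above both WT mice. Its log2 fold change was 0.19 ± 0.12 (SE, adjusted p = 0.373), with an interval from 8.13% lower to 42.1% higher. The exact permutation p was 0.114 in the heterozygous round and 0.333, the smallest possible, in the homozygous round. Scn8a thus had a higher mean in both mutant groups and a call in neither.

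Scn3a, the embryonic subunit, had lower means in both mutant groups. It stood at 64.4, 74.1 and 65.8 CPM in WT and at 60.2, 65.2, 61.9 and 60.1 CPM in 1b+/-, where 1b+/- replicate 2 overlapped the WT mice. This gave a log2 fold change of -0.14 ± 0.058 (SE, unadjusted p = 0.0384, adjusted p = 0.406, edgeR), which shrank to -0.069 without WT replicate 2 (adjusted p = 0.756). The other round had 53.6 and 44.7 CPM in WT and 32.6 and 33.4 CPM in 1b-/-, without overlap. The fitted log2 change there was -0.57 ± 0.14 (SE, adjusted p = 0.0852). DESeq2 and the fit of all 11 libraries together called it (adjusted p = 0.0347 and 0.00128), where they called 14.4% and 37.2% of all genes.

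Scn9a, whose gene lies next to Scn1a on the side of its 1a start, differed between the rounds. It had 75 to 179 counts per library, so its counting error was larger than that of the abundant members. Its level was 4.42, 4.61 and 4.85 CPM in WT and 3.94, 3.997, 4.15 and 6.24 CPM in 1b+/-. The 3 male 1b+/- mice lay below the WT mice and the female above them, and the log2 fold change was -0.0096 ± 0.18 (SE, adjusted p = 0.990, edgeR). Its level was 6.32 and 6.50 CPM in WT of the 1b-/- round and 2.67 and 2.35 CPM in 1b-/-. This is a log2 fold change of -1.35 ± 0.26 (SE, unadjusted p = 0.00279, adjusted p = 0.0584), which missed the threshold. DESeq2, the likelihood ratio test, the fit of all 11 libraries and the fit without a filter called it, with adjusted p from 0.00117 to 0.0444, in fits that called 5.42% to 37.2% of all genes.

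Scn7a had 34 to 93 counts per library in the homozygous round, where it was the rarest member in 3 of the 4 libraries, and 56 to 155 in the heterozygous round. It was present at 3.78, 5.95 and 4.32 CPM in WT and at 2.56, 3.26, 2.19 and 4.67 CPM in 1b+/-, the female again the highest of the mutants. Its log2 fold change was -0.56 ± 0.26 (SE, adjusted p = 0.460, edgeR), and it was -0.34 without WT replicate 2 and -0.81 without 1b+/- replicate 4. Mice of the 1b-/- round had 1.53 and 1.78 CPM in WT and 1.28 and 2.91 CPM in 1b-/-, on either side of the WT mice. A log2 change of 0.34 ± 0.53 (SE, adjusted p = 0.718) was fitted, and it was -0.37 without 1b-/- replicate 2.

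Whether a gene changed differently in the 2 genotypes was tested in a fit of all 11 libraries, as the 1b-/- change minus the 1b+/- change. Of the 6 members 3 passed, all lower in 1b-/-, where 27.3% of 14905 genes passed, 13% lower and 14.3% higher, and 40.1% had an unadjusted p under 0.05. Scn1a differed by -2.36 on the log2 scale (standard error 0.32, adjusted p = 8.7e-04, edgeR). Scn9a differed by -1.35 ± 0.28 (SE, adjusted p = 0.00684) and Scn3a by -0.44 ± 0.12 (SE, adjusted p = 0.0223). The Scn3a call was lost without WT replicate 3 of the heterozygous round, without WT replicate 1 of the homozygous round, without 1b-/- replicate 1 and in the likelihood ratio test (adjusted p from 0.0506 to 0.0872). For Scn8a the 95% interval of the difference ran from 12.9% lower to 20.4% higher in 1b-/- (adjusted p = 0.836), and for Scn2a1 from 16.4% lower to 22.0% higher (adjusted p = 0.943). For Scn7a the interval was too wide to order the genotypes, from 20.1% lower to 324% higher (adjusted p = 0.255). With sex as a covariate Scn7a passed as well (1.54 on the log2 scale, adjusted p = 0.0237). Genotype difference and round cannot be told apart in this test, since each genotype was sequenced in 1 round only.

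Summed over the 6 members, the alpha subunit pool was nearly level in 1b+/- and lower in 1b-/-. The sum was 1134, 1075 and 1046 CPM in WT and 1119, 1070, 1091 and 1071 CPM in 1b+/-, means that differed by 0.255%. It was 759 and 851 CPM in WT of the 1b-/- round and 715 and 703 CPM in 1b-/-, a mean 11.9% lower with no overlap. The 1b-/- mean was 6.61% lower without WT replicate 2, 16.7% lower without WT replicate 1 and 16.4% lower with library totals in place of TMM scaling. No p is given for these sums, which are descriptions.

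Without Scn1a, the sum of the other 5 was 963, 962 and 923 CPM in WT and 1028, 986, 995 and 951 CPM in 1b+/-. The 3 male 1b+/- mice lay above the WT mice and the female among them, and the mean was 4.29% higher. In 1b-/- it was 688 and 686 CPM against 625 and 678 CPM in WT, a mean 5.45% higher, and 0.170% higher with library totals in place of TMM scaling. In CPM per kilobase, the 1b+/- mean differed from WT by -3.43 for Scn1a and by 3.42 for the other 5 together. The 1b-/- mean differed by -11.9 for Scn1a and by 3.12 for the other 5. In the heterozygous round both terms overlapped between the groups. Scn1a stood at 10.2 to 15.4 in WT and at 7.52 to 10.8 in 1b+/-. The other 5 stood at 88.2 to 91.7 and at 90.6 to 97.1. The near match of -3.43 and 3.42 depended on WT replicate 1. Without that library the log2 fold change of Scn1a was -0.27 in place of -0.47. The CPM sum of the other 5 was then 5.04% higher in place of 4.29%. Within the 3.42, Scn8a differed by 3.59, Scn2a1 by 0.544 and Scn3a by -0.498. Within the 3.12, Scn8a differed by 3.99, Scn2a1 by 0.724, Scn3a by -1.28 and Scn9a by -0.364. None of the 5 genes was called higher in either genotype. The sum of the 5 was higher than WT by between 2.87% and 5.65% in 1b+/- and by between 1.32% and 9.93% in 1b-/- as each library was left out in turn.

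**Figure D4:**
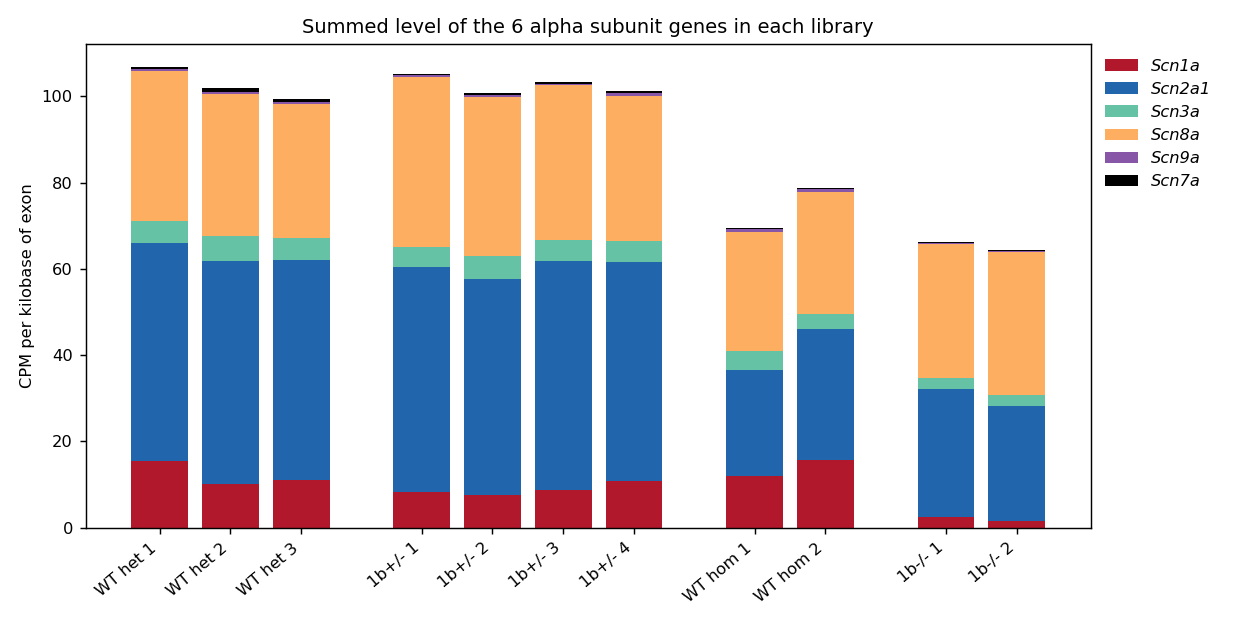
Summed level of the 6 genes in each library in CPM per kilobase of exon, with 1 bar per library and 1 colour per gene. The 1b+/- bars overlap the WT bars of their round in height, and the Scn1a segment nearly vanishes in the 1b-/- bars.

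As a share of all reads on the 6 members, Scn1a made up 15.1%, 10.5% and 11.8% in WT and 8.14%, 7.79%, 8.85% and 11.1% in 1b+/-. It made up 17.6% and 20.3% in WT of the homozygous round and 3.68% and 2.38% in 1b-/-. The 95% Wilson interval of the lowest share ran from 2.18% to 2.58%, so counting error was small beside the spread between mice. Such intervals cover counting error only. Scn8a took 54.8% ± 3.05 (SD, n = 2) of the reads in 1b-/- and 42.4% ± 2.79 (n = 2) in WT, and 40.7% ± 2.04 (n = 4) in 1b+/- against 36.8% ± 0.642 (n = 3). Scn2a1 took 36.8% ± 2.40 in 1b-/- against 31.5% ± 2.23, and 43.9% ± 0.826 in 1b+/- against 43.6% ± 1.99. A share rises when another member falls, so it was also taken over the 5 members other than Scn1a. There Scn8a took 56.5% in 1b-/- against 52.2% in WT and 44.7% in 1b+/- against 42.1%, while Scn2a1 took 38.0% against 38.9% and 48.2% against 49.8%. The Scn3a share of these 5 was 4.81% in 1b-/- against 7.59% in WT.

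Per kilobase, Scn2a1 exceeded Scn1a by 3.28- to 5.07-fold in WT mice of the heterozygous round and by 4.72- to 6.68-fold in 1b+/-. The ratio was 2.03 and 1.95 in WT of the 1b-/- round and 12.5 and 17.7 in 1b-/-. The WT mice of the 2 rounds did not overlap in this ratio. On a scale set over all 11 libraries, Scn2a1 stood at 481 to 491 CPM in WT of the heterozygous round and at 223 and 278 CPM in WT of the homozygous round. Scn1a stood at 116 to 175 CPM and at 131 and 170 CPM. Values of different rounds are set side by side only, since the rounds differ in read type.

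Set beside the WT mice of the heterozygous round on the scale of all 11 libraries, Scn1a in 1b-/- stood at 25.9 and 16.2 CPM against 116 to 175 CPM. Scn9a stood at 2.63 and 2.28 CPM against 4.54 to 4.98 CPM, and Scn3a at 32.2 and 32.4 CPM against 66.1 to 76.1 CPM. The WT mice of the homozygous round lay outside both ranges, at 6.21 and 6.41 CPM of Scn9a and 52.7 and 44.1 CPM of Scn3a. Scn8a stood at 371 and 389 CPM in 1b-/- against 388 to 433 CPM. Its place above WT in the homozygous round, where WT had 330 and 339 CPM, was not seen against the WT mice of the heterozygous round. Scn2a1 stood at 271 and 240 CPM against 481 to 491 CPM, and the WT mice of the 2 rounds were themselves that far apart in it.

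Beta subunits modify gating and anchor the channel. Of Scn2b, Scn3b and Scn4b none was called in 1b+/-, where 0% of all genes were. In 1b-/- Scn3b was called higher and Scn4b lower. Scn3b stood at 146 and 133 CPM in WT and at 307 and 278 CPM in 1b-/-, a log2 fold change of 1.07 ± 0.13 (SE, adjusted p = 0.0283, edgeR). It stood at 220 to 285 CPM in WT of the heterozygous round. Scn4b, a subunit abundant in striatum, stood at 1230 and 550 CPM in WT and at 28.8 and 12.03 CPM in 1b-/- (log2 fold change -5.44, standard error 0.64, adjusted p = 0.0272). Mice of the 1b+/- round had 15.8 to 41.1 CPM in WT and 21.7 to 35.7 CPM in 1b+/-, with overlap. Scn2b overlapped between the genotypes of both rounds (adjusted p = 0.501 in 1b-/- and 0.868 in 1b+/-).

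**Figure D5:**
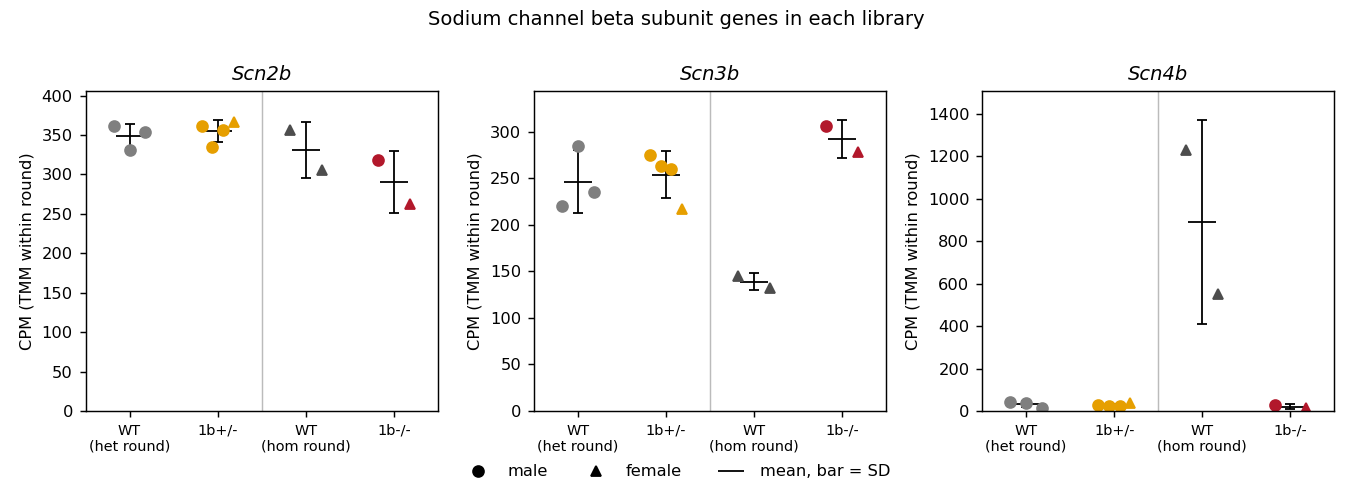
CPM of Scn2b, Scn3b and Scn4b in each library, by group, on axes from 0; circles are males, triangles females, and the bar is the mean with its SD. Scn4b is high only in the 2 WT libraries of the homozygous round, and Scn3b is lowest in the same 2 libraries.

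The alpha subunit genes Scn4a, Scn10a and Scn11a had at most 11 counts in a library and did not pass the filter.

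Genes that act on sodium channels or their RNA were counted by list. Of 10 channel modulators, such as the fibroblast growth factor homologous factors and the ankyrin that anchors channels at the initial segment, 0 were called in either comparison. Of all genes 0% were called in 1b+/- and 3.58% in 1b-/-. In the test of the difference between genotypes 3 of the 10 passed, 2 lower in 1b-/- and 1 higher, where 27.3% of all genes passed. Ank3, that ankyrin, had a log2 fold change of 0.20 in 1b+/- (standard error 0.059, adjusted p = 0.268) and of -0.49 in 1b-/- (standard error 0.12, adjusted p = 0.0877). Fgf14 had -0.78 in 1b-/- (standard error 0.15, adjusted p = 0.0604) and Nfasc 0.28 in 1b+/- (standard error 0.089, adjusted p = 0.297). Of 9 RNA regulators 0 were called, with Nova1 at -0.63 (adjusted p = 0.0868) and Nova2 at 0.44 (adjusted p = 0.134) in 1b-/- as the smallest p. In 1b+/- Rbfox2 and Nova2 were at -0.08 and 0.07 (adjusted p = 0.561 and 0.582). Of the 9 regulators 3 passed the test of the difference, 2 lower in 1b-/- and 1 higher. Of 8 other genes within or beside the cluster on chromosome 2, Csrnp3, Galnt3 and Ttc21b lie between Scn2a1 and Scn1a. In 1b+/- 0 of the 7 tested were called, and in 1b-/- 0 of the 8 tested. In 1b-/- 7 of the 8 had a log2 fold change below 0 (median -0.33), against 1 of 7 in 1b+/- (median 0.085). In the test of the difference between genotypes 4 of the 8 passed, Slc38a11, Csrnp3 and Xirp2 lower in 1b-/- and Galnt3 higher, where 27.3% of all genes passed. Within each genotype the smallest p were those of Cobll1 (0.34) and Grb14 (0.09) in 1b+/- and of Xirp2 (-3.15) and Galnt3 (1.47) in 1b-/-, with adjusted p from 0.100 to 0.571.

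Of 14 GABAergic interneuron genes, markers of the cells in which Scn1a is best known, 0 were called in 1b+/-. In 1b-/- 1, Gad2, was lower and 3, Cck, Nos1 and Htr3a, were higher. Of all genes 0% were called in 1b+/-, and 1.52% were called lower and 2.06% higher in 1b-/-. Gad2 and Slc32a1, the synthesis enzyme and vesicular transporter of GABA, had log2 fold changes of -0.28 and -0.28 in 1b+/- (adjusted p = 0.180 and 0.183, edgeR), and 12 of the 14 genes had a log2 fold change below 0 there (median -0.23, all genes 0.00073). In 1b-/- Htr3a and Nos1 rose by 2.39 and 1.08 (adjusted p = 0.0283 and 0.0334), and Gad2 fell by 1.03 (adjusted p = 0.0386). The WT mice of the homozygous round carried the striatal markers given above. Gad2 had a mean of 335 CPM in them, 163 CPM in 1b-/- and 222 CPM in WT of the heterozygous round. Htr3a had means of 2.47, 12.9 and 10.3 CPM in the same order, and Nos1 of 23.7, 50.2 and 165 CPM. How far those striatal markers bear on these changes was not tested. Pvalb, the marker of fast-spiking cells, had 0.17 in 1b+/- (adjusted p = 0.726) and -1.07 in 1b-/- (adjusted p = 0.0815). The part of these markers in the change of Scn1a was not tested.

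Over the 7 libraries of the heterozygous round, the genes whose log2 CPM followed Scn1a most closely were Serpinb9 (Pearson r = 0.984), Selk (0.984), Acyp2 (0.976), 1810041L15Rik (0.964) and Abat (0.957), among 10653 genes with an average log2 CPM of at least 3. Among members at that level the r was 0.15 for Scn3a, -0.33 for Scn2a1 and -0.55 for Scn8a. These are descriptions over 7 libraries that share the genotype contrast.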

How the data were processed

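The authors deposited raw counts per gene, 1 table per round. Per the labels and the study's methods, stranded mRNA libraries were aligned to mm9 with STAR 2.7.2 and counted with featureCounts, without normalization. The strand setting and the annotation of the counting are not given in the sources used here.

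Counts were analysed with edgeR 4.0.16 (R 4.3.3): a minimum of 1 CPM in any 1 library, TMM factors, estimateDisp, glmQLFit and glmQLFTest with genotype as the only term, Benjamini-Hochberg adjustment over all genes tested and a threshold of 0.05. SE is the size of the log2 change over the root of its F. The difference between genotypes used all 11 libraries and the genes of both tables. Each mouse is 1 library. The code was tested on simulated data. Exon lengths came from the GENCODE annotation of mm9. Alternatives were filterByExpr, no filter, upper-quartile and RLE factors, the likelihood ratio test, DESeq2 1.42.0, sex as a covariate, 1 fit of all libraries and each library left out. The members and the gene lists were chosen with earlier results of these data known. Named genes are the members, the other alpha and beta subunits, the 2 genes of smallest p in each comparison of the other lists described and the 5 most like Scn1a. Drd2, Ppp1r1b, Cck and Pvalb were named after their values were seen, and lists and comparisons that no member's result touches are left out. Some genes and a sequence that these rules name are not reported here.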

Additional observations from a re-analysis of the deposited data

Results flagged for a closer look

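The female 1b+/- mouse, replicate 4, had 6.24 CPM of Scn9a, far above the other 1b+/- mice at 3.94 to 4.15 CPM. It was also apart in its Scn9a share of the reads on the 6 members, 0.582%. About 1 in 20 groups of this size is flagged by chance. The rule was applied to the level and the read share of all 6 members and to their sums, so it had many occasions to flag. Both flags rest largely on the same Scn9a counts. Only the 1b+/- group, with 4 mice, was examined in this way, since the other groups were smaller. Without this mouse the log2 fold change of Scn9a in 1b+/- was -0.20 (adjusted p = 0.589, edgeR).

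The change in 1b-/- differed from that in 1b+/- for Scn1a by -2.36, for Scn3a by -0.44 and for Scn9a by -1.35 on the log2 scale. Each passed the test of the difference, in which 27.3% of all genes passed, and each genotype was sequenced in a round of its own.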

How the results depend on the processing

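Of the 372 values recomputed under alternatives, 333 moved little, which means the same direction and side of the threshold for a tested value, a shift of less than 1 SD between mice for a sum and a count of calls within 1.5 times. Within these bounds the 6-member sum in 1b+/- still changed sign, from 0.255% above WT as reported to between -1.50% and 2.56% with a library left out and -0.345% with further alpha subunit genes added. For many tested values the side of the threshold was fixed in advance. The permutation tests of 2 against 2 could not pass 0.05, their smallest possible p being 0.333. Most alternatives in the heterozygous round called 0 of all genes, so no member could cross there. Such values could only move by changing direction. The members with a different change in the 2 genotypes were 3 as reported, 2 by the likelihood ratio test, 4 with sex as a covariate and 2 to 3 with a library left out. No paired analysis was possible because the replicate numbers of the labels do not pair mice across genotypes. In 1b-/-, 1 member was called as reported, 2 without a filter and by the likelihood ratio test, 3 by DESeq2 and in 1 fit of all libraries, and 0 to 1 with a library left out. The number of genes called in all rose from 531 to 1029 without a filter, 1391 by the likelihood ratio test, 2144 by DESeq2 and 5541 (37.2%) in 1 fit of all libraries in the homozygous round, and was 0 without its WT replicate 1 and 192 without its WT replicate 2. In the heterozygous round it was 0 as reported, 44 without a filter, 243 by the likelihood ratio test and 421 without WT replicate 1. The cause was not tested.

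Members whose log2 fold change lay near 0 changed sign. Scn9a in 1b+/- was 0.0034 with upper-quartile factors and from -0.20 to 0.057 with a library left out, and its CPM difference was 0.014 with library totals. Scn2a1 in 1b-/- was -0.043 with sex as a covariate and from -0.11 to 0.20 with a library left out, and its CPM difference was -6.68 with library totals. Scn7a in 1b-/- ran from -0.37 to 0.81. The difference between genotypes was -0.053 for Scn2a1 and -0.0096 for Scn8a with sex as a covariate, and ran from -0.14 to 0.17 and from -0.013 to 0.074 with a library left out. Scn9a and Scn7a had the lowest counts of the members, and how far depth set their intervals was not tested.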
